A study of Rattus norvegicus with 6 samples.

Results

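The Hox genes are homeodomain transcription factors that lie in 4 chromosomal clusters, HoxA to HoxD, and are numbered by paralog group from 1 to 13 along each cluster. Genes with low paralog numbers are used from the hindbrain and neck downwards, and genes with higher numbers are switched on progressively closer to the tail. In the limb, genes of paralogs 9 to 13 pattern the segments from the shoulder or hip to the digits. Neural crest cells, from which Schwann cells derive, carry the Hox code of the axial level they leave, and limb mesenchyme and fibroblasts carry a code of their own.

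The Hox genes were taken as all gene symbols made of Hox, a cluster letter from a to d and a number. This gave 33 symbols among the 29468 symbols of the expression tables, of which 8 were in HoxA, 10 in HoxB, 8 in HoxC and 7 in HoxD. Their level was compared between SCPs and RSCs of LEWIS rats, all labelled wild type. SCPs (Schwann cell precursors) were untreated and came from embryonic day 14, from the sciatic nerves of both sides together with the brachial plexus. RSCs (repair Schwann cells) came from rats aged 10 weeks, from the distal part of the sciatic nerve 1 week after it was cut. Each group had 3 samples, prepared by enzymatic dissociation with no sort described. RSCs were digested longer and with more collagenase than SCPs, and brief plating was used to take away adherent cells such as fibroblasts and macrophages. Age, nerve injury, source nerve and digestion therefore changed together, and their effects on a Hox gene cannot be told apart. In particular, forelimb-level tissue entered the SCPs and not the RSCs.

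Levels are given in FPKM, fragments scaled by transcript length and by the number of mapped fragments, summed over all transcripts of a symbol. FPKM allows levels to be compared between genes because it is scaled by transcript length. The tables hold no read counts and give no absolute depth. Coverage per unit of FPKM put the other 5 libraries at 0.790 to 0.933 of the deepest, SCP2. In bulk RNA such as this, fewer cells that express a gene and less RNA per cell cannot be told apart. The labels do not say that the 3 preparations of a group came from separate litters or animals, so p-values measure only the spread between these preparations.

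Schwann lineage identity was checked first. Sox10, the transcription factor that defines the lineage, was at 179, 175 and 181 FPKM in the SCPs and at 149, 143 and 143 in the RSCs. Other genes of the lineage differed more. Of 12 Schwann lineage markers 10 were tested, 2 were higher in SCPs and 5 in RSCs, and their summed FPKM was 534 to 635 in SCPs and 2177 to 2734 in RSCs. S100b, a calcium-binding protein of mature Schwann cells, was at 3.21, 11.7 and 19.3 in SCPs and at 924, 782 and 843 in RSCs, and Ngfr, the low-affinity neurotrophin receptor, was at 173 to 233 and 803 to 1068. A listed 0 in these tables can be a failed estimate. Other cell types were present on both sides. The summed FPKM of 7 erythroid markers was 23639.2, 16660.7 and 74550.5 in the SCPs and 1.64 to 2.86 in RSCs. SCP3, with the most erythroid signal, also had the lowest Hox sum of the SCPs from named transcripts. Whether the 2 are linked was not tested. The summed FPKM of 10 skeletal muscle markers was 50.8 to 177 in SCPs and 6.27 to 8.54 in RSCs, and Myod1, a muscle determination factor, was at 8.36 to 14.3 in SCPs and listed at 0 in every RSC sample. Summed over 7 cartilage markers the level was 66.7 to 109 in SCPs and 2.16 to 2.76 in RSCs. Most of the SCP sum was 1 gene, Col2a1, at 58.6, 85.9 and 103. Only 2 of the 7 were tested, and 1 was higher in SCPs and 0 in RSCs. For 12 mesenchyme and fibroblast markers the summed level was 722 to 1067 in SCPs and 5379 to 8039 in RSCs. For 10 leukocyte markers it was 13.3 to 39.3 and 2729 to 2957. The mesenchyme list was mixed, with 3 of 11 tested genes higher in SCPs and 6 in RSCs. Dcn and Col1a1, matrix genes of fibroblasts, were among the latter. Higher in SCPs were Osr1 (log2 fold change, RSC minus SCP, of -3.39), Twist1 (-1.86) and Twist2 (-1.12), transcription factors of embryonic mesenchyme. Prrx1, a marker of limb mesenchyme, was at 18.2, 26.9 and 8.58 in SCPs and at 4.62, 9.25 and 8.58 in RSCs, and these ranges overlapped. With transcripts of no gene name added, as described next, it was at 38.6, 47.5 and 28.9 in SCPs and at 8.51, 14.0 and 8.58 in RSCs, without overlap, and was higher in SCPs (-1.80, limma adjusted p = 0.000807). The part of these cell types in the Hox values was not tested.

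A pair of limits on gene identity apply to the values that follow. First, the tables contain transcripts that Cufflinks assembled in each sample without a gene name. They held 26.1 to 31.9% of all FPKM in SCPs and 18.6 to 23.4% in RSCs. Such transcripts may take up the signal of a named gene, or may be other transcripts of its locus. Hoxb9 is the plainest candidate. It was at 68.9 and 58.4 FPKM in SCP1 and SCP2 and listed at 0 in SCP3. Its values were 68.9, 139.6 and 99.2 once unnamed transcripts of the same Cufflinks locus were added to it. This addition raised 13 of the 33 symbols in at least 1 sample and only 2 of them in any RSC sample, and lowered the zeros among the 99 SCP values from 30 to 22. Both versions are therefore given for the Hox symbols below that it raised, and for other genes where it changed a call or the overlap of the groups. Second, the HoxA region of the rn6 assembly carries a repeat of itself at a distance of 85795 bases. The transcripts listed as Hoxa9 and Hoxa7 are copies of each other of equal length, and the accessioned transcript under Hoxa9 now bears the name Hoxa7 in RefSeq. The symbol Hoxa9 is kept here as the tables give it, but its gene is uncertain. Hoxa10 likewise has a copy under a LOC symbol, and the signal of the gene may be split between them.

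The 5′ flanking sequences at hand for Hox genes, nearly all from HoxA and HoxD, were rich in CpG dinucleotides by their median. In the RefSeq promoter table of the GRCr8 assembly, which is not the rn6 build of the expression tables, 16 of the 33 symbols had an entry. Each entry spans 300 bases, 250 before and 50 after the start of the gene. Over the 21 Hox promoters in that table the median was 22 CpG dinucleotides, a GC content of 62.3% and a CpG observed-to-expected ratio of 0.818, whereas the medians over all 33469 promoters were 7, 51.7% and 0.392. The range among Hox promoters was wide, from 6 CpG dinucleotides at Hoxc4 to 49 at Hoxd8. Hoxc4 was the only HoxC entry, and Hoxb1, with 9 CpG dinucleotides, the only HoxB entry. Hoxb6 to Hoxb9 and Hoxc10 had no entry, so the medians do not speak for HoxB and HoxC. The 250 bases before the start are shown for 3 genes that differed between SCPs and RSCs. The 300-base entries of Hoxc4 and Hoxd9 held the fewest and the most CpG among the differing genes with an entry. Hoxa10 had the largest difference among them on the log2(FPKM + 1) scale used below, and has a pair of starts. CG dinucleotides are in capitals.
Hoxc4, chr7:136048809-136049058, plus strand: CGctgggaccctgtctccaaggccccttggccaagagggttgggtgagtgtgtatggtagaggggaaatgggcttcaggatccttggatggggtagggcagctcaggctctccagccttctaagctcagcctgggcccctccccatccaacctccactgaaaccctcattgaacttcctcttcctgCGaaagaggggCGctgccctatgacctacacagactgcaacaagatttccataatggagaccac
Hoxd9, chr3:80007756-80008005, plus strand: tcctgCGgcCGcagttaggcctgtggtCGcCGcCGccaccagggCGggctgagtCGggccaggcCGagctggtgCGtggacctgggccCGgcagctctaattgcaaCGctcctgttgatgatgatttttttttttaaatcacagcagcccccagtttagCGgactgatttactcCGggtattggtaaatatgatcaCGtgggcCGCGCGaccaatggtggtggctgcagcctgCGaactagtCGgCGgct
Hoxa10, chr4:82671491-82671740, minus strand: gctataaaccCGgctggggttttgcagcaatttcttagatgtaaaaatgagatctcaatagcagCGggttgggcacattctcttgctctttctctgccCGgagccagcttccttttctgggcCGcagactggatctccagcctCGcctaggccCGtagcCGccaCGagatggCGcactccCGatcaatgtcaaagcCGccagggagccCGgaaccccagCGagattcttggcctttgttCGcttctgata
Hoxa10, chr4:82665923-82666172, minus strand: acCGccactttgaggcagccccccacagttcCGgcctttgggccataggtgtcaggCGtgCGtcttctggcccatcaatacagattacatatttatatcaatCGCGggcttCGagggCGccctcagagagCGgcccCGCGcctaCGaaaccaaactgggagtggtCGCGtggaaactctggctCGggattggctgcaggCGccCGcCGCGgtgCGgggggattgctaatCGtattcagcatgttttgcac
These windows hold 3, 20, 14 and 21 CpG dinucleotides in the order shown. The letters TGATTNAT, a composite site that Hox and Pbx proteins can bind together, were found on either strand of 2 of the 21 Hox promoters, Hoxd11 and Hoxa2, that is 9.52%, and of 3.18% of all promoters. The TATA box letters TATAAA, a motif that does not contain the former and is not contained in it, were found in 4 Hox promoters, or 19.0%, and in 14.2% of all promoters. Both Hoxa10 windows have a match to TATAAA. A match is only a match of letters, and its use was not measured.

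Across the 33 symbols, 30 were above 0 in at least 1 sample, and Hoxb13, Hoxc12 and Hoxc13 were listed at 0 throughout. The mean was higher in SCPs for 26 symbols and in RSCs for 4, namely Hoxa3, Hoxa6, Hoxa7 and Hoxd4. Hoxd4 joined the first group when unnamed transcripts were added. Hoxa6 was above 0 in RSC2 alone, at 0.374 FPKM. Hoxa7, listed at 0 in all SCPs, is the copy of the symbol Hoxa9, whose mean was higher in SCPs. How signal was split between these copies was not tested. A mean of at least 5 FPKM was reached by 10 symbols in SCPs and by 0 in RSCs, where the highest single value was 4.14 for Hoxb2 in RSC3. Summed over all 33 symbols, Hox FPKM was 265, 246 and 149 in the SCPs and 29.5, 32.9 and 29.3 in the RSCs. The means were 220 ± 62.0 and 30.6 ± 1.99 (SD, n = 3), a ratio of 7.19, and the groups did not overlap. After the addition of unnamed transcripts the sums were 300.0, 349 and 305 against 30.1, 33.4 and 31.9, a ratio of 10.00. The sum of SCP3 then lay between those of the other SCPs.

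**Figure D1:**
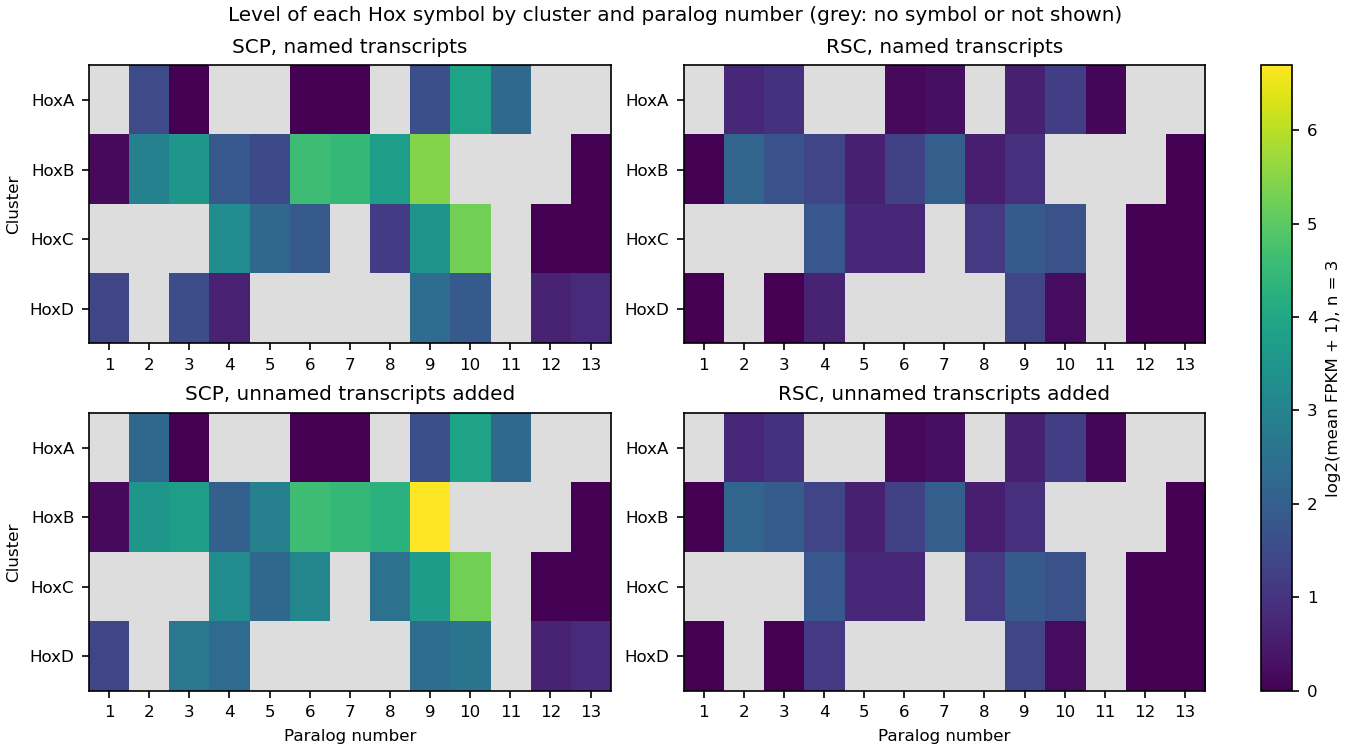
Mean level of each Hox symbol in 3 SCP and 3 RSC samples as log2(mean FPKM + 1), by cluster (rows) and paralog number (columns), from named transcripts (top) and with unnamed transcripts added (bottom); grey squares have no symbol in the tables or are not shown. The brightest SCP squares from named transcripts are Hoxb9, Hoxc10, Hoxb6, Hoxb7 and Hoxa10, while no RSC mean reached 5 FPKM.

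Each symbol was then tested between the groups with limma on log2(FPKM + 1), fitted over the 13003 symbols that averaged 1 FPKM or more across all 6 samples. A symbol was called at an unadjusted p under 0.01, the threshold of the study, and adjusted p-values are those of Benjamini and Hochberg over all symbols tested. Of the 33 Hox symbols 20 entered the test, and 13, being low or listed at 0, could not be called in either direction. Of these 14 were higher in SCPs, against 22.4% of all symbols tested, and 0 were higher in RSCs, against 18.1%. The corresponding count of symbols more than 4-fold higher in RSCs was 0, against 7.81%. The 6 symbols Hoxa10, Hoxa11, Hoxb6, Hoxb7, Hoxb8 and Hoxc10 were more than 4-fold higher in SCPs, against 3.78% of all symbols. The groups did not overlap, with SCPs above RSCs, for 15 symbols, against 33.7%. The median log2 fold change (RSC minus SCP) was -1.48 over the Hox symbols tested and -0.17 over all symbols tested. Median-of-ratios scaling moved the latter to 0.02 and left 13 Hox symbols higher in SCPs. Without RSC3 the count of called symbols was 9, and without SCP3, in which Hoxb9 was listed at 0, it was 14, with 7 more than 4-fold higher. With unnamed transcripts added, 22 symbols were tested, 20 were higher in SCPs against 34.1% of all symbols, 0 in RSCs against 23.2%, and 10 were more than 4-fold higher in SCPs against 4.58%. Hoxb4 and Hoxb5 were the 2 not called. Without the filter on level, 30 symbols were tested and 15 were higher in SCPs against 16.8%. Hoxa3 was then the 1 symbol higher in RSCs, against 13.4% of all symbols; all SCPs had a listed 0, and the RSCs lay at 0.978, 1.03 and 0.812 FPKM.

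**Figure D2:**
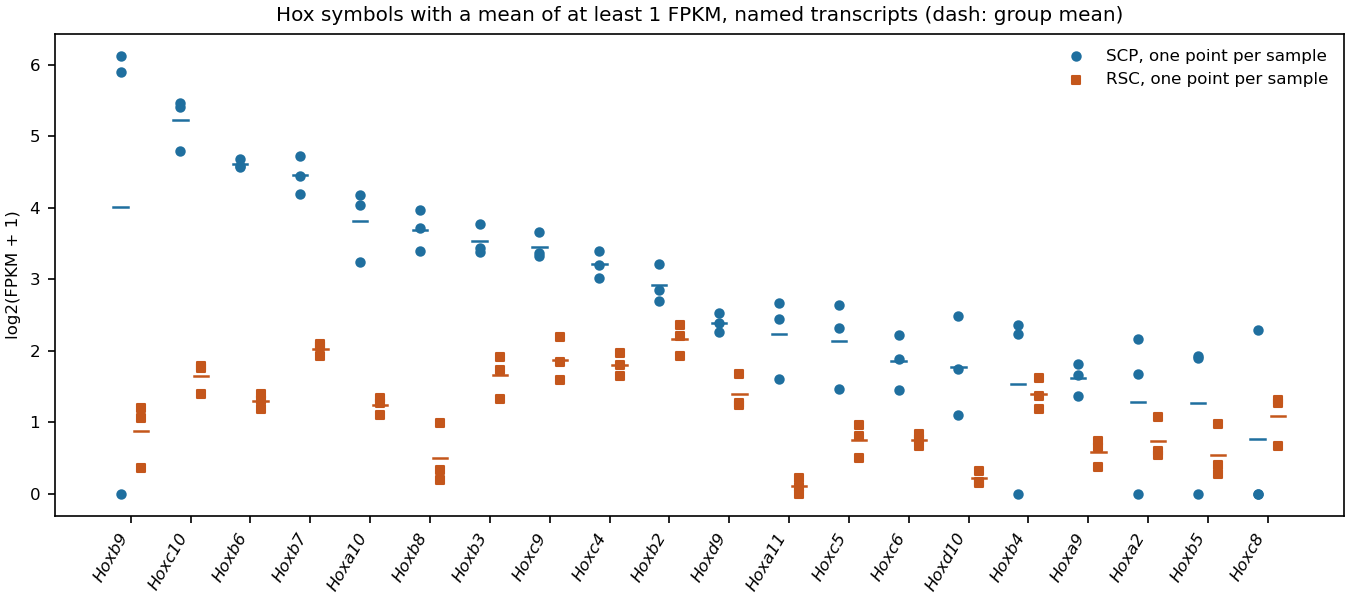
Level of the 20 tested Hox symbols in each sample as log2(FPKM + 1), ordered by the SCP mean; circles are SCPs, squares RSCs and dashes the group means (n = 3). The groups are apart for 15 symbols, and single SCP points on the axis, as for Hoxb9, are samples in which the named transcript was listed at 0.

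The genes of paralogs 1 to 3 specify hindbrain and upper neck levels. Of the 8 symbols 3 were tested and 1 was higher in SCPs, beside 22.4% of all symbols tested. With unnamed transcripts added 4 of 4 were higher in SCPs, beside 34.1%. Hoxb2 was at 8.29, 6.21 and 5.52 FPKM in SCPs and 2.79, 3.61 and 4.14 in RSCs. All SCPs lay above all RSCs, but the difference did not reach the threshold (log2 fold change -0.76 ± 0.22 SE, limma adjusted p = 0.0332, 0.0144 before adjustment), and it did with unnamed transcripts added (-1.31 ± 0.30, limma adjusted p = 0.00766). It had the highest RSC mean of the 33 symbols. Hoxb3 was at 12.7, 9.86 and 9.48 in SCPs and at 2.31, 2.77 and 1.504 in RSCs, with no overlap (-1.88 ± 0.23, limma adjusted p = 0.00126). The other version gave 12.7, 14.2 and 9.48 against 2.31, 2.77 and 3.51 (-1.76). Hoxa2 was not called from named transcripts, with 1 SCP sample listed at 0. It reached 3.47, 2.75 and 5.19 in SCPs with unnamed transcripts added, against 0.460, 1.11 and 0.521 in RSCs (-1.49 ± 0.25, limma adjusted p = 0.00211). Hoxd3, below the filter by its named transcripts, was then at 5.49, 5.90 and 4.48 in SCPs and listed at 0 in all RSCs. Hoxb1 and Hoxd1 averaged below 1 FPKM over the 6 samples.

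Paralogs 4 to 8 mark lower neck and trunk levels, and those of HoxC with numbers 4 to 6 are used at the level of the forelimb. In HoxB, Hoxb6 was at 24.6, 23.0 and 22.7 FPKM in SCPs and at 1.29, 1.65 and 1.496 in RSCs. These were among the tightest values of the family, and the groups were far apart (-3.31 ± 0.15, limma adjusted p = 3.84e-05). Hoxb7 was at 25.5, 17.2 and 20.8 in SCPs and at 3.28, 3.19 and 2.79 in RSCs (-2.42 ± 0.18, limma adjusted p = 0.000218). Hoxb8 was at 12.1, 14.7 and 9.55 in SCPs and at 0.148, 0.986 and 0.261 in RSCs (-3.19 ± 0.29, limma adjusted p = 0.000441). In both cases every SCP sample was above every RSC sample. Unnamed transcripts brought Hoxb8 to 20.4, 14.7 and 20.4 in SCPs and left its RSC values as they were (-3.76). Among the 33 symbols Hoxb7 had the second highest mean in RSCs, and Hoxb8 was at rank 21. Hoxb4 and Hoxb5 were not called in either version, with SCP values from 0 to 16.8 FPKM across both versions and RSC values from 0.213 to 2.06.

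In HoxC, Hoxc4 was at 9.57, 7.11 and 8.22 FPKM in SCPs and at 2.90, 2.13 and 2.48 in RSCs, without overlap (-1.40 ± 0.19, limma adjusted p = 0.00196). Hoxc5 was at 4.01, 1.78 and 5.21 in SCPs and at 0.412, 0.750 and 0.955 in RSCs (-1.39 ± 0.36, limma adjusted p = 0.0222). Hoxc6 was at 2.71, 3.65 and 1.74 in SCPs and at 0.585, 0.782 and 0.704 in RSCs (-1.10 ± 0.27, limma adjusted p = 0.0176). Every SCP value of the 3 genes exceeded every RSC value. Counting named transcripts, the call of Hoxc5 was lost without any 1 sample other than SCP2, with p up to 0.0305, and that of Hoxc6 without any 1 sample other than SCP3, with p up to 0.0197. Unnamed transcripts brought Hoxc6 to 5.65, 3.65 and 12.9 in SCPs, with no change in RSCs (-2.16 ± 0.39, limma adjusted p = 0.00275). Hoxc8 was listed at 0 in SCP1 and SCP2 and at 3.88 in SCP3, against 1.42, 1.48 and 0.589 in RSCs. Adding unnamed transcripts changed the SCP values to 4.77, 5.66 and 3.88, and Hoxc8 was then higher in SCPs (-1.43 ± 0.23, limma adjusted p = 0.00171). The direction of Hoxc8 thus turned with the treatment of unnamed transcripts, from a log2 fold change of 0.32.

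The HoxD symbols of this range gave low values, and 1 gene went the other way. Hoxd4 was at 3.59, 4.10 and 4.43 FPKM in SCPs and at 1.22, 1.16 and 1.09 in RSCs with unnamed transcripts added (-1.22 ± 0.14, limma adjusted p = 0.000419), but its named transcripts were below the filter. Hoxd8, which the tables list under a LOC symbol and which is therefore not among the 33, was at 0, 5.11 and 4.25 in SCPs and at 7.34, 9.24 and 7.999 in RSCs. Its difference was not called from the named transcript (1.53 ± 0.71, limma adjusted p = 0.128). With the unnamed transcript of its locus added, SCP1 was at 6.12, all RSCs lay above all SCPs and Hoxd8 was higher in RSCs (0.58 ± 0.16, limma adjusted p = 0.0168, 0.00957 before adjustment). Its RSC values were above those of every one of the 33 Hox symbols. This gene was looked up after the values had been seen, by matching gene identifiers to current RefSeq names.

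Genes of paralogs 9 and 10 are used at thoracic and lumbar levels and in the limb buds, and Hoxc10 and Hoxd10 are known for the lumbar cord and hindlimb. All 7 such symbols were tested and 6 were higher in SCPs, beside 22.4% of all symbols tested. With unnamed transcripts added 7 were higher in SCPs, beside 34.1%. Both counts include the symbol Hoxa9, whose accessioned transcript now bears the name Hoxa7, a gene of the range above. Hoxc10 was at 41.6, 43.3 and 26.8 FPKM in SCPs and at 2.40, 1.64 and 2.44 in RSCs. On the log2(FPKM + 1) scale it had the largest difference of any called Hox symbol (-3.58 ± 0.24, limma adjusted p = 0.000134). By ratio of group means, Hoxa11 (50.7) and Hoxb8 (26.1) were above Hoxc10 (17.2). Hoxa10 was at 15.5, 17.1 and 8.45 in SCPs and at 1.54, 1.42 and 1.14 in RSCs (-2.58 ± 0.29, limma adjusted p = 0.000933). Adding the copy of Hoxa10 gave 27.5, 31.0 and 16.5 against 3.10, 2.70 and 2.28. Each SCP sample exceeded each RSC sample for both Hoxc10 and Hoxa10, and SCP3 was the lowest of the SCPs.

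Hoxb9, with the highest SCP mean of the family, was at 0.281, 1.29 and 1.10 FPKM in RSCs. Its named values, with the 0 in SCP3, gave a log2 fold change of -3.13 ± 1.67 (limma adjusted p = 0.177, 0.111 before adjustment), which was not called. With unnamed transcripts added it was the largest of all Hox differences (-5.76 ± 0.32, limma adjusted p = 1.74e-05). Without SCP3 the named value was -5.14. Hoxc9 was at 9.02, 11.7 and 9.30 in SCPs and at 2.01, 2.58 and 3.59 in RSCs (-1.57 ± 0.22, limma adjusted p = 0.00230). The groups were apart, and Hoxc9 had the third highest RSC mean of the 33 symbols. The other version raised SCP1 to 14.4 (-1.78).

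The remaining members of this range had named SCP values below 5 FPKM. Hoxd9 was at 4.24, 4.75 and 3.796 FPKM in SCPs and at 2.18, 1.41 and 1.37 in RSCs (-0.997 ± 0.22, limma adjusted p = 0.0116). Hoxd10 was at 4.602, 2.34 and 1.14 in SCPs and at 0.253, 0.115 and 0.122 in RSCs (-1.56 ± 0.39, limma adjusted p = 0.0192). The symbol Hoxa9, whose gene is uncertain, was at 2.53, 2.17 and 1.59 in SCPs and at 0.292, 0.671 and 0.569 in RSCs (-1.03 ± 0.24, limma adjusted p = 0.0157). In all 3 the groups did not overlap, but the calls were lost with some single samples left out. That of Hoxd9 was lost without SCP1, SCP2, RSC2 or RSC3 (p up to 0.0144), that of Hoxd10 without SCP2 or any 1 RSC sample (up to 0.0232), and that of Hoxa9 without SCP1, SCP2, RSC1 or RSC3 (up to 0.0148). Unnamed transcripts brought Hoxd10 to 6.47, 5.70 and 2.60 in SCPs, with no change in RSCs (-2.28 ± 0.30, limma adjusted p = 0.000636).

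Paralogs 11 to 13 pattern the lower limb, digits and tail. Of the 6 symbols only Hoxa11 passed the filter. Hoxa11, a gene of the forearm and shank segment, was at 4.46, 5.33 and 2.06 FPKM in SCPs and at 0.0714, 0.163 and 0 in RSCs (-2.14 ± 0.33, limma adjusted p = 0.00330). All SCPs were above all RSCs. Hoxd12 and Hoxd13, the digit genes of HoxD, were detected in the 3 SCPs at 0.0793 to 1.35 FPKM and listed at 0 in every RSC sample, and both were below the filter. Hoxc11, again listed under a LOC symbol and outside the 33, was at 16.4, 19.6 and 8.78 in SCPs and at 0.401, 1.84 and 1.36 in RSCs with unnamed transcripts added (-2.85 ± 0.37, limma adjusted p = 0.000621). Without them SCP1 and SCP2 were listed at 0 and no difference was called (-0.02, limma adjusted p = 0.988).

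**Figure D3:**
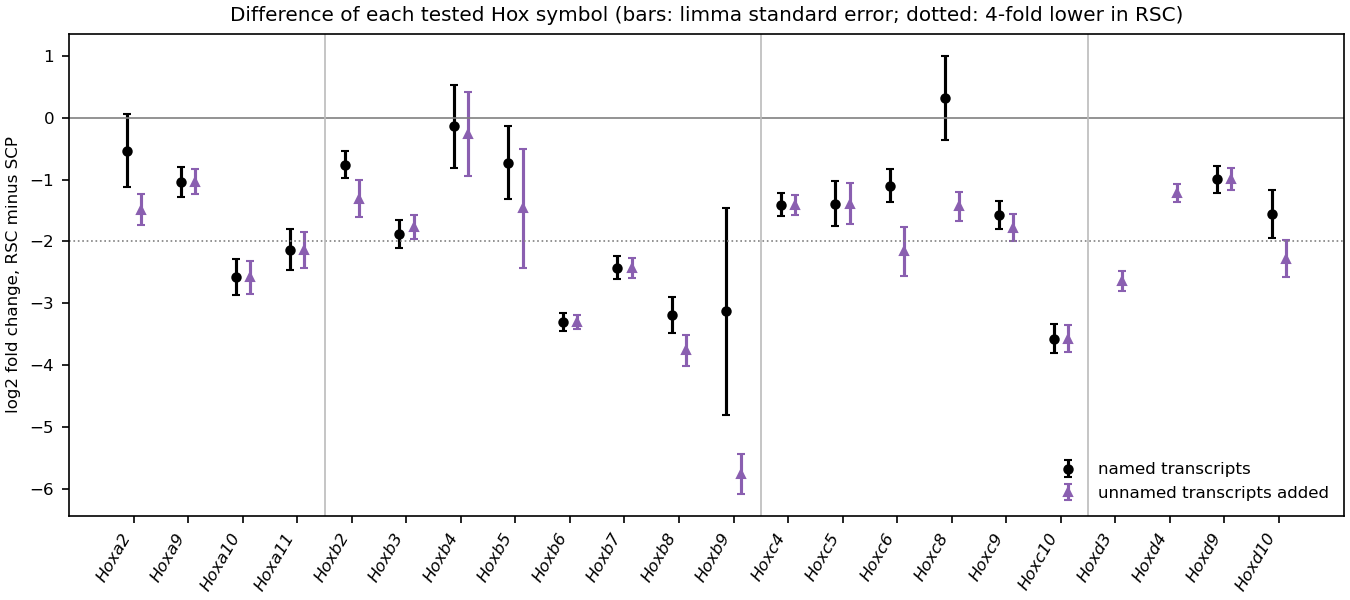
Log2 fold change (RSC minus SCP, on log2(FPKM + 1)) of each Hox symbol tested in either version, ordered by cluster and paralog number, with limma standard errors as bars; circles use named transcripts and triangles add unnamed ones. All triangles lie below 0, and the large bars of Hoxb9, Hoxb4, Hoxb5 and Hoxc8 belong to genes with a listed 0 among the SCPs, as does that of Hoxa2.

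By cluster, 3 of 4 tested symbols were higher in SCPs in HoxA, 4 of 8 in HoxB, 5 of 6 in HoxC and 2 of 2 in HoxD. The share over all symbols tested was 22.4%. These counts became 4 of 4, 6 of 8, 6 of 6 and 4 of 4 after the addition of unnamed transcripts, beside 34.1% of all symbols. HoxB, on chr10:84031955-84215812 of rn6, contributed most to the sum, with 156, 137 and 70.8 FPKM in SCPs and 12.7, 15.8 and 12.9 in RSCs. HoxC, on chr7:144531814-144650129, gave 66.9, 67.5 and 55.2 against 9.72, 9.37 and 10.8. HoxA, on chr4:82124358-82301421, gave 28.0, 25.5 and 15.6 against 4.07, 5.57 and 3.67. HoxD, on chr3:61590376-61687758, gave 14.0, 16.004 and 7.52 against 3.08, 2.15 and 1.96. SCPs and RSCs did not overlap in any cluster, and the ratio of the means was between 5.20 in HoxA and 8.79 in HoxB. Counting the 4 LOC symbols that are now named Hoxc11, Hoxa4, Hoxd8 and Hoxd11 brought the ratio of HoxD down from 5.22 to 1.65. With unnamed transcripts the ratio rose to 13.7 in HoxB, whose sums became 167, 224 and 204 against 12.7, 15.8 and 14.9, and was 5.63 in HoxA, 7.35 in HoxC and 7.25 in HoxD.

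The make-up of the Hox sum differed as well as its size. Paralogs 1 to 3 made up 11.03, 10.2 and 12.9% of the summed Hox FPKM in SCPs and 24.6, 27.3 and 25.0% in RSCs, and these shares did not overlap. Paralogs 9 and 10 made up 55.3, 56.9 and 34.3% in SCPs and 30.3, 27.8 and 35.3% in RSCs. Here SCP3 lay within the RSC range. Once unnamed transcripts were added the shares were 51.2, 64.3 and 49.7% against 29.8, 27.4 and 32.4%, without overlap. Paralogs 4 to 8 made up 31.1, 30.3 and 51.3% in SCPs and 44.8, 44.4 and 39.8% in RSCs, which overlapped. Genes of paralogs 11 to 13 accounted for 1.59 to 2.71% in SCPs and for at most 0.495% in RSCs. These shares became 3.598 to 6.88% and 1.26 to 4.63%, and overlapped, when the 4 LOC symbols were counted. No test was made on these shares, which sum over chosen genes. In order of mean among the 33 symbols, Hoxb9, Hoxc10, Hoxb6, Hoxb7 and Hoxa10 led in SCPs, and Hoxb2, Hoxb7, Hoxc9, Hoxc4 and Hoxb3 led in RSCs.

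**Figure D4:**
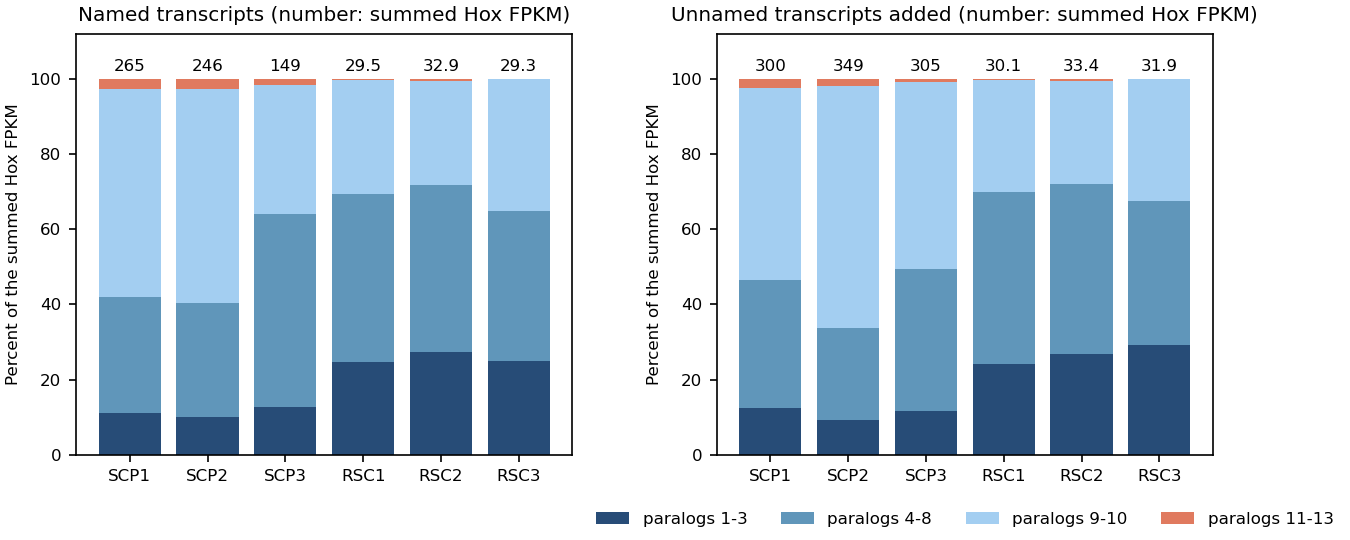
Percent of the summed Hox FPKM of each sample that came from paralogs 1 to 3, 4 to 8, 9 and 10, and 11 to 13, from named transcripts (left) and with unnamed transcripts added (right); the number above each bar is the summed Hox FPKM. Paralogs 1 to 3 hold 10.2 to 12.9% of the sum in SCPs and 24.6 to 27.3% in RSCs on the left.

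Hox proteins bind DNA together with TALE homeodomain cofactors of the Meis, Pbx and Pknox families. Of 9 such genes 8 were tested, 3 were higher in SCPs and 0 in RSCs, beside 22.4% and 18.1% of all symbols tested. Meis2 was at 64.9, 49.1 and 37.3 FPKM in SCPs and at 1.72, 1.74 and 1.74 in RSCs (-4.20 ± 0.22, limma adjusted p = 6.18e-05). Meis1 was at 45.7, 35.6 and 28.5 against 1.42, 1.59 and 1.29 (-3.93 ± 0.20, limma adjusted p = 6.22e-05). The groups were apart for both. The third was Pbx2, at 60.7, 55.1 and 49.4 in SCPs and 16.2, 20.4 and 10.5 in RSCs (-1.79 ± 0.24, limma adjusted p = 0.00188).

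Limb identity factors tell hindlimb from forelimb, and SCPs were drawn from both levels but RSCs from the sciatic nerve alone. Of 18 limb patterning genes 14 were tested, 5 were higher in SCPs and 1 in RSCs, beside the same 22.4% and 18.1%. Pitx1, which sets hindlimb identity, was at 19.6, 18.7 and 13.7 FPKM in SCPs and at 0.203, 0.175 and 0.370 in RSCs (-3.86 ± 0.21, limma adjusted p = 7.01e-05). Tbx4, the hindlimb T-box factor, was at 6.38, 6.58 and 3.93 against 0.274, 0.436 and 0.493 (-2.22 ± 0.25, limma adjusted p = 0.000989). Each SCP sample was above every RSC sample for both hindlimb factors.

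The forelimb T-box factor Tbx5 was at 5.89, 0.230 and 0.743 FPKM in SCPs and listed at 0 in the RSCs. Most of it came from SCP1, and the difference was not called (-1.29 ± 0.66, limma adjusted p = 0.159). Isl1, needed for hindlimb initiation and also a motor and sensory neuron factor, was at 8.51, 0 and 9.49 in SCPs and listed at 0 in RSCs, and was not called (-2.21 ± 0.93, limma adjusted p = 0.101). With unnamed transcripts added SCP2 was at 10.4 and Isl1 was higher in SCPs (-3.61 ± 0.18, limma adjusted p = 1.15e-05). Shh, the signal of the posterior limb bud, was the limb gene higher in RSCs, at 13.02, 15.6 and 12.7 against a listed 0 in all SCPs (3.88 ± 0.19, limma adjusted p = 4.88e-05).

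**Figure D5:**
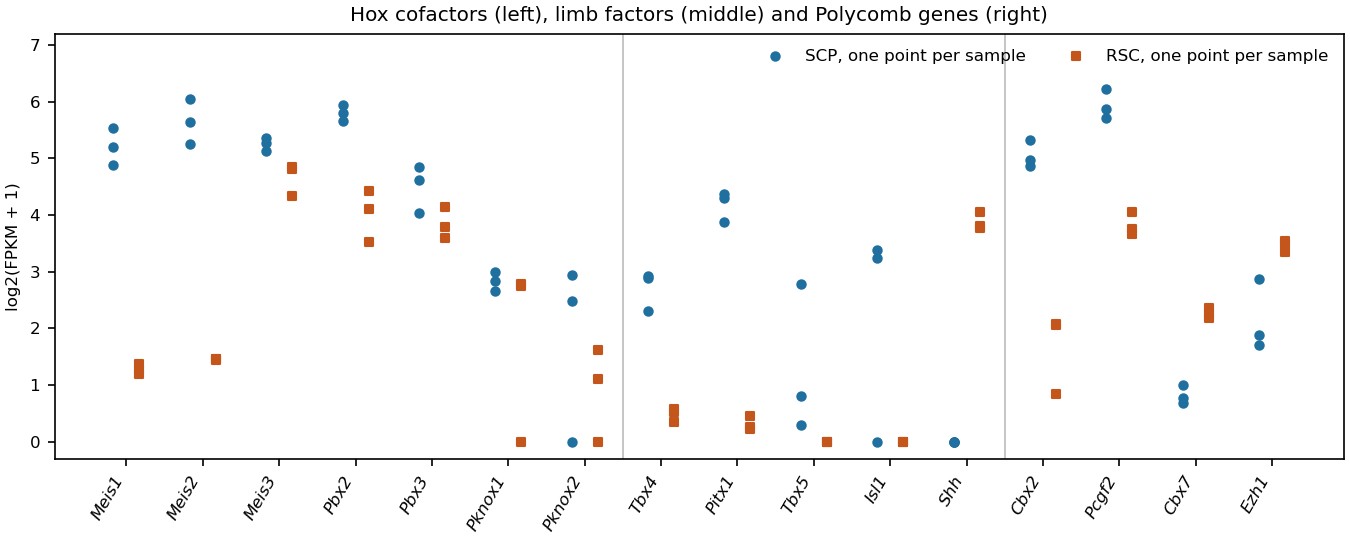
Level in each sample, as log2(FPKM + 1), of 7 Hox cofactors, 5 limb factors and 4 Polycomb genes; circles are SCPs and squares RSCs. Meis1, Meis2, Pitx1 and Tbx4 are apart by more than 4-fold with SCPs above RSCs, and Shh, Cbx7 and Ezh1 lie the other way from named transcripts.

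Polycomb complexes keep silent Hox genes repressed and Trithorax complexes keep active ones on. Of 18 Polycomb genes tested, 9 were higher in SCPs and 2 in RSCs, and of 10 Trithorax and Ctcf genes tested 5 were higher in SCPs and 0 in RSCs, beside 22.4% and 18.1% of all symbols. Cbx2, a chromodomain subunit, was at 39.0, 28.1 and 30.4 FPKM in SCPs and at 0.799, 3.17 and 3.24 in RSCs (-3.39 ± 0.37, limma adjusted p = 0.000876). Pcgf2 was at 74.1, 57.7 and 51.4 against 11.7, 15.6 and 12.4 (-2.12 ± 0.18, limma adjusted p = 0.000323). Both subunits were above RSC levels in each SCP sample. In the other direction, Cbx7, another chromodomain subunit, was at 0.717, 0.615 and 1.02 in SCPs and 4.15, 3.52 and 3.76 in RSCs (1.44 ± 0.21, limma adjusted p = 0.00238). Ezh1, a histone methyltransferase, was at 2.25, 2.68 and 6.35 against 10.6, 9.25 and 10.3 (1.31 ± 0.34, limma adjusted p = 0.0209). Its call was lost with unnamed transcripts added, at 4.76, 9.93 and 6.35 against 10.6, 12.95 and 10.3 (0.66 ± 0.24, limma adjusted p = 0.0494, 0.0329 before adjustment). Within the Trithorax list, Kmt2a, the methyltransferase known as MLL, was at 9.44 ± 1.69 (SD, n = 3) in SCPs and 3.43 ± 1.59 in RSCs, and Wdr5, its core partner, at 40.6 ± 6.99 and 17.3 ± 1.39. Both were higher in SCPs. The median log2 fold change was -0.64 over the Polycomb genes and -0.72 over the Trithorax and Ctcf genes, beside -0.17 over all symbols.

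Of 17 genes that act upstream of Hox genes, 11 were tested, 1 was higher in SCPs and 2 in RSCs. These counts are near or below the 22.4% and 18.1% of all symbols. Rara, a retinoic acid receptor, was at 43.7, 56.1 and 40.3 FPKM in SCPs and at 14.7, 21.0 and 26.7 in RSCs (-1.16 ± 0.24, limma adjusted p = 0.00984). Egr2, a regulator of paralog 2 genes in the hindbrain and of myelin genes in Schwann cells, was at 3.10, 4.25 and 3.7996 against 38.3, 34.7 and 39.2 (3.03 ± 0.14, limma adjusted p = 4.70e-05). For both genes the groups did not overlap. Homeobox genes of the head and of the ParaHox cluster, which lie outside the Hox code, were mostly low or listed at 0. Of 12 such genes, 7 were listed at 0 in all 6 samples and 2 were tested. Dlx1 was the 1 called, at 31.8, 28.1 and 28.2 in SCPs and at 0.766, 1.08 and 0.516 in RSCs (-4.10 ± 0.18, limma adjusted p = 3.84e-05). Dlx2, the other gene tested, was at 14.0, 12.7 and 0 against 2.08, 1.19 and 3.03 and was not called, but it was higher in SCPs with unnamed transcripts added, which brought its SCP values to 53.5, 36.9 and 37.7 (-3.84 ± 0.26, limma adjusted p = 3.71e-05).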

How the data were processed

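Each of the 6 deposited tables, 1 per sample, lists transcripts with FPKM and coverage. Stranded mRNA libraries were read in pairs by the authors, and the submitters' processing notes name FastQC 0.11.2, TopHat2 2.1.0 and Cufflinks 2.2.1 on rn6. The authors' FPKM were used as deposited, and the deposited coverage signal served for relative depth alone. FPKM were summed by symbol per sample. Left out were 77 transcripts per sample whose symbols had been turned into dates. The 33 Hox symbols follow from a naming pattern, and the members and lists were chosen with earlier results of these data known. The study used Cuffdiff, which needs reads, so limma 3.58.1 in R 4.3.3 (moderated test with variance trend, two-sided) on log2(FPKM + 1) took its place. This scale understates the change of low genes. On simulated data 200 of 13003 genes, drawn only from those well above the filter, were changed by a log2 value of 2. Of these 94% were called in the right direction, and 1.04% of the other genes were called. Most of the Hox symbols tested averaged below the level of the genes drawn, so the 94% does not apply to them. Values in every sample are given for Hox symbols called at p under 0.01, for the highest symbol of each cluster and for those averaging over 1 FPKM whose groups do not overlap. Hoxa2, Hoxa3, Hoxc8, Hoxd3, Hoxd4, Hoxc11 and Hoxd8 were added after their values were seen. From other lists the 2 members most changed in each direction are named, with Tbx4, Tbx5, Pitx1, Isl1, Sox10 and Prrx1. Myod1, Twist2, Dlx2, Col9a1, Sox5 and Hapln1 were added after their values were seen. A few genes that these rules would name are not reported here. Alternatives were another pseudocount, filter, scaling, variance model or transcript choice, unnamed transcripts added, zeros left out, a replicate block and leaving out each sample.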

Additional observations from a re-analysis of the deposited data

How the results depend on the processing

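Under every alternative run, more Hox symbols were higher in SCPs than in RSCs and the summed level was higher in SCPs. The 14 called symbols became 8 with a mean of at least 5 FPKM required and 9 when the adjusted p was held to 0.01, because Hoxa9, Hoxc5, Hoxc6, Hoxd9 and Hoxd10 were no longer called, and 9 to 14 on leaving out 1 sample. The 6 symbols over 4-fold became 10 with unnamed transcripts added by Cufflinks locus, 10 when added by position (an alternative chosen after seeing the data) and 10 from ratios of group means, and 5 to 7 on leaving out 1 sample. The 29 called members of the 6 lists of cofactors, limb, chromatin and other patterning genes became 45 with unnamed transcripts added and 25 to 30 on leaving out 1 sample. The summed Hox FPKM of SCPs moved from 220 to 318 by locus and 337 by position, with 197 to 255 on leaving out 1 sample. That of RSCs moved from 30.6 to 28.5 when the highest transcript stood for each symbol and to 40.9 when the 4 LOC symbols were counted (also chosen after seeing the data), with 29.4 to 31.2 on leaving out 1 sample, and the latter lowered the share of paralogs 9 and 10 in RSCs from 31.1 to 23.3%. That share ranged from 29.1 to 32.8% in RSCs and from 44.8 to 56.1% in SCPs on leaving out 1 sample. The labels number the samples 1 to 3 in both groups, but same-numbered samples did not deviate together (r = 0.044, -0.0049 and 0.026), so the numbers are not taken as pairs. A replicate block left 9 Hox symbols called and 6 over 4-fold. Hoxc5 under median-of-ratios scaling and Hoxa9 from the highest transcript were not called. Read depth is unknown, so a listed 0 cannot be given a limit.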

Other observations

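More unnamed signal lay in the Hox cluster regions than the loci of named genes took up. In the HoxB window, unnamed transcripts summed to 51.6, 157 and 242 FPKM in the SCPs, from 6, 8 and 13 transcripts, and to 0, 0 and 2.01 in the RSCs. For HoxC the sums were 63.5, 127 and 74.0 in SCPs and 6.78, 19.9 and 6.61 in RSCs. These transcripts carry no strand in the tables, so signal of a Hox gene and of an antisense or intergenic transcript of the cluster cannot be told apart there. In the duplicated part of HoxA, the pairs of LOC symbols gave nearly equal values in each sample: the first pair was at 13.9, 14.6 and 8.55 FPKM in SCPs and its copy at 14.0, 14.5 and 8.61, with 0.724 to 0.903 and 0.780 to 0.899 in RSCs.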
